A study of Sus scrofa domesticus with 9 samples.

Results

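The liver enzyme families of phase I and phase II drug metabolism were compared between PN and bottle-fed preterm piglets. Members were the genes whose symbol begins with FMO, GST, UGT, SULT, CES, CYP2 or CYP4, leaving out CYP2B22 and pseudogenes. They came to 32 of the 16223 genes in the authors' deposited all-gene table, of which 12506 carried a symbol. Counts per library were given for 6 of the 32 (FMO1, GSTA1, SULT1A3, CYP2U1, CYP2J34 and CYP4F8) in a second deposited table, which holds 1054 genes that the authors had selected for a difference between the same livers. A further 6 symbols share the first letters but belong to other gene families (FMOD, CYP21A2, CYP26A1, CYP26B1, CYP27A1 and CYP27B1) and were counted apart. Another 14 family symbols, among them FMO2, CYP2C42, CYP2C49 and CYP2A19, were not analysed here, and UGT8 was the only UGT gene that could be matched by name, so the glucuronidating enzymes of the liver are not described.

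The study asked how the liver transcriptome of preterm piglets on parenteral nutrition (PN, feeding into a vein) differs from that of piglets fed by mouth. The PN group was 6 Yorkshire piglets that received PN with a soybean oil lipid emulsion until day of life 15, together with a medium chain triglyceride vehicle by gavage each day. The bottle-fed group was 3 Yorkshire piglets fed sow milk replacer and taken off PN by day of life 3. All 9 piglets were born by caesarean section 5 days preterm, carried a central venous catheter and began life on PN, and liver RNA was taken at day of life 15. The groups came from separate sows, so litter, feeding and vehicle cannot be told apart. PN 5 had been left out by the study as an outlier, and values are given for the other 5 PN livers and the 3 bottle-fed livers, with PN 5 named beside them.

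Phase I enzymes add or expose a polar group on a drug or on a fatty acid, steroid or other small molecule of the body. Flavin-containing monooxygenases (FMO) and cytochromes P450 (CYP) oxidise with NADPH, and carboxylesterases (CES) cleave esters. Phase II enzymes then attach glutathione (glutathione S-transferases, GST), glucuronic acid (UGT) or sulfate (sulfotransferases, SULT), which makes the product easier to excrete, and hepatocytes are the main site of both phases.

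Total counts per library ran from 17337946 to 23421807 in the PN group and from 17106838 to 24025142 in the bottle-fed group. Of the 12 fixed hepatocyte markers, 11 had a mean normalized count of at least 50, over a range of 28.9 to 1886800, and 3 of the 12 were lower and 1 was higher with PN in the authors' deposited all-gene table, with a median log2 fold change of -0.28. Of 6 measured bile duct markers, 3 were higher and 0 lower, with a median of 1.22. Among all genes in that table, 6.95% were lower and 6.64% higher at an adjusted p under 0.05. The summed normalized count of the 3 bile duct markers with counts per library (KRT7, EPCAM and CLDN4) was 2817 to 4526 in PN livers and 7477 in PN 5, against 1159 to 2469 in bottle-fed livers. These are bulk samples, in which fewer cells of a type and less RNA per cell cannot be told apart, and the part of cell makeup in the differences below was not tested.

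Across the 7 families, 11 members were lower and 5 were higher with PN at an adjusted p under 0.05 in the authors' deposited all-gene table, and 16 were not called. That is 34.4% of the members lower and 15.6% higher, beside 6.95% lower and 6.64% higher among all genes in the table. Among genes with a mean normalized count of at least 50, which 28 of the 32 members had, 8.95% were lower and 8.36% higher. The median log2 fold change of the 32 members was -0.46, beside 0.01 for all genes, and 24 of the 32 values lay below 0. Beyond a log2 fold change of 1, 6 members were lower and 2 were higher, beside 3.10% and 3.17% of all genes. All 5 called members of the GST family were lower, whereas 3 of the 4 called sulfotransferases were higher. Each fold change from this table is PN over bottle-fed, from the DESeq2 fit of the authors, and whether the deposited table is the fit without PN 5 is not stated in the sources used here. Its values also differ from those obtained from the counts per library. For FMO1 it gave -2.12, against -1.93 in a DESeq2 fit of the 5 PN and 3 bottle-fed libraries. An edgeR fit of all 9 libraries gave -1.84. Why the values differ was not tested.

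**Figure D1:**
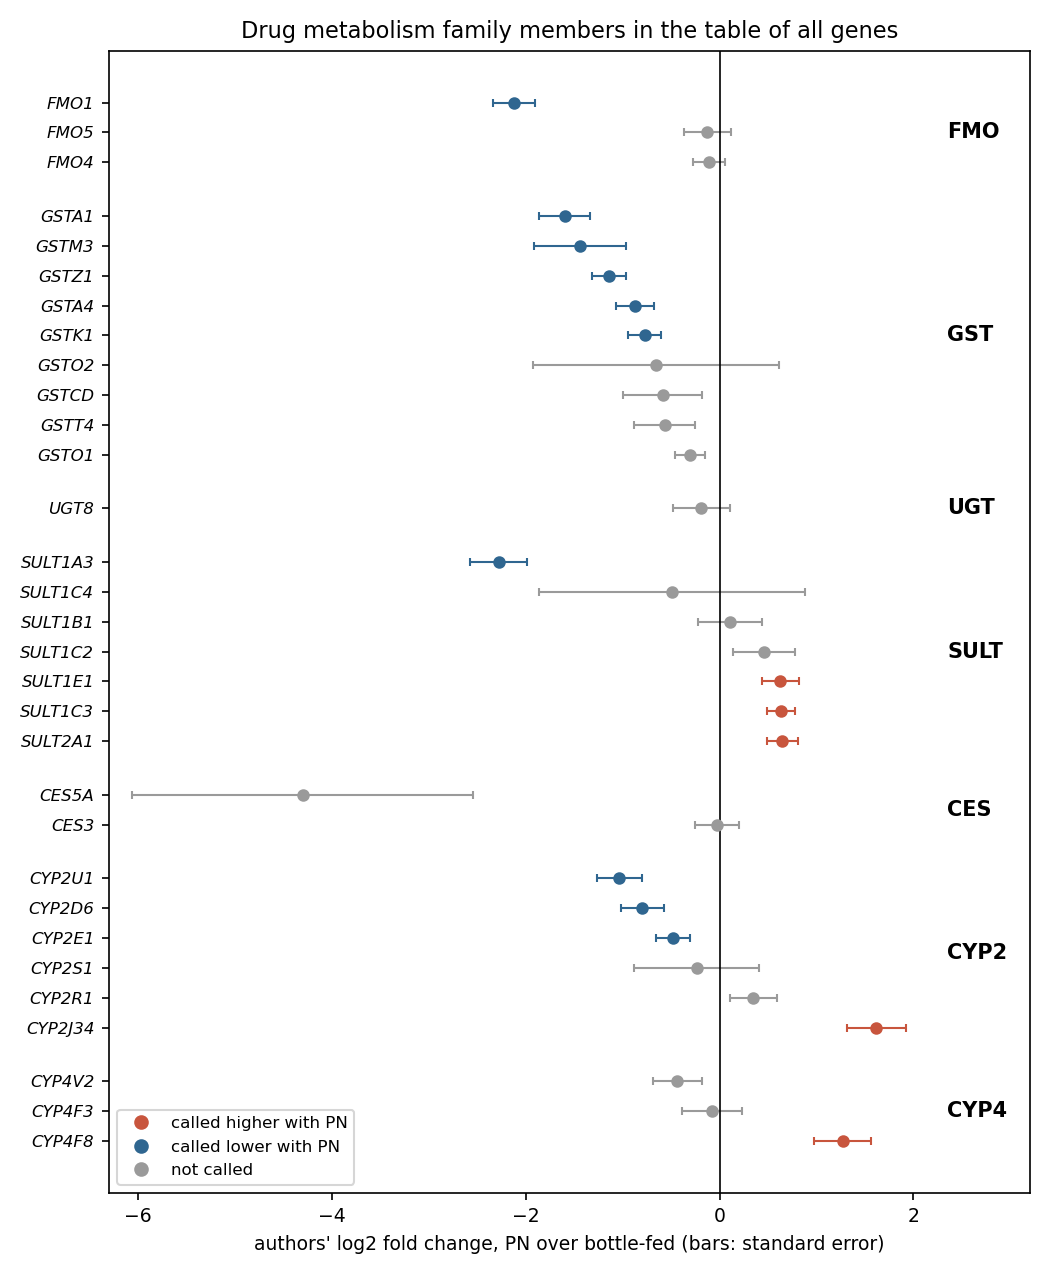
Log2 fold changes (PN over bottle-fed) of the family members described here, in the authors' deposited all-gene table, grouped by family, with horizontal bars for the standard error. All 9 GST genes lie below 0, the 3 called-higher SULT genes lie between 0.63 and 0.65, and FMO1 and SULT1A3 lie below -2.

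Of the phase I families, the flavin monooxygenases are given first. FMO1 is the flavin monooxygenase first purified from pig liver. It had normalized counts (raw counts over the size factor that the authors set for each library) of 3797, 6381, 4669, 3586 and 7774 in PN 1, 2, 3, 4 and 6, against 16485, 22199 and 21177 in bottle-fed 1, 2 and 3. Every PN liver lay below every bottle-fed liver, including PN 5 with 7186. The group means were 5241 ± 1793 in the PN group (SD, n = 5) and 19954 ± 3047 in the bottle-fed group (SD, n = 3), and edgeR's quasi-likelihood test gave a log2 fold change of -1.93 (SE 0.30, adjusted p = 2.88e-04). Genes with counts per library had been selected for such a difference. Without PN 5, 41.6% of them did not overlap and were lower, and 43.5% did not overlap and were higher. Of those tested, edgeR called 45.7% lower and 54.1% higher. This limit holds for each member with counts per library described below.

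FMO5, whose mean normalized count in the authors' deposited table was 9805, had a log2 fold change of -0.13 (SE 0.24, adjusted p = 0.827), and FMO4 had -0.11 (SE 0.16, adjusted p = 0.762). Neither was called. The 2 abundant members FMO1 and FMO5 had values of -2.12 and -0.13 in the same table. Whether the members differ from each other in response was not tested.

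The FMO1 gene model that was counted, at chr9:63812103-63895077 on the + strand of Sscrofa11.1, is wider than FMO1 in the RefSeq annotation of that build. It starts 87 bases inside RefSeq FMO2, covers a pseudogene, and takes in RefSeq FMO1 at chr9:63860957-63895086. The exon length behind the deposited FPKM was 2552 bases, close to the 2370 of RefSeq FMO1 and far from the 6017 of RefSeq FMO2, and 0% of the 31-base words in the RefSeq FMO1 exons occur in exons of another gene. FPKM, which scales counts by exon length and library total, averaged 104 ± 35.4 in the PN group and 397 ± 59.9 in the bottle-fed group.

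The largest phase I family, CYP2, had 3 members lower, 1 higher and 2 not called, with a median log2 fold change of -0.36. That is 50% lower and 16.7% higher, beside 6.95% and 6.64% of all genes. CYP2E1, which oxidises ethanol and acetaminophen, had the highest mean of all 32 members at 33797 normalized counts. It was lower with PN, with a log2 fold change of -0.48 (SE 0.17, adjusted p = 0.0412). CYP2D6, named after a human enzyme that oxidises many drugs, had a mean of 19755 and a log2 fold change of -0.80 (SE 0.22, adjusted p = 0.00471). CYP2R1, a vitamin D hydroxylase, had 0.35 (adjusted p = 0.398), and CYP2S1, at a mean of 34.2, had -0.24 (adjusted p = 0.889).

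CYP2U1, a hydroxylase of long-chain fatty acids, varied less among the 5 PN livers than the other members with counts per library did. Normalized counts were 182, 184, 230, 214 and 219 in PN 1, 2, 3, 4 and 6, against 424, 414 and 467 in bottle-fed 1, 2 and 3. The highest PN liver was 1.26 times the lowest, and the groups did not overlap, with PN 5 lower still at 141. Means were 206 ± 21.5 in the PN group and 435 ± 28.1 in the bottle-fed group, with a log2 fold change of -1.08 (SE 0.22, adjusted p = 0.00117) in edgeR's quasi-likelihood test. Its deposited model, chr8:114011304-114035357 on the - strand, shares 14914 bases from start to end, introns included, with that of SGMS2 on the same strand. Overlap of their exons was not measured, so whether counted reads there could belong to either gene was not tested.

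CYP2J34 went the other way. CYP2J enzymes are known in humans for turning arachidonic acid into epoxides. Normalized counts were 711, 1288, 1501, 1135 and 991 in PN 1, 2, 3, 4 and 6, against 127, 575 and 346 in bottle-fed 1, 2 and 3. No PN liver was as low as a bottle-fed liver, although PN 5 with 668 came close to bottle-fed 2, and the bottle-fed livers were 4.54-fold apart. Means were 1125 ± 299 in the PN group and 349 ± 224 in the bottle-fed group, and the log2 fold change in edgeR's quasi-likelihood test was 1.69 (SE 0.42, adjusted p = 0.00319). Without bottle-fed 1 it was 1.29, and without bottle-fed 2 it was 2.25.

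The value cannot be assigned to CYP2J34 alone. The counted model spans 327132 bases at chr6:152321848-152648979 on the + strand, with an exon length of 29241 bases, and overlaps 7 RefSeq genes. RefSeq CYP2J34 has an exon length of 1933 bases, and beside it lie 4 further genes annotated as cytochrome P450 2J enzymes, a pseudogene and part of HOOK1 on the opposite strand. Of the 31-base words in the RefSeq CYP2J34 exons, 38.4% occur in exons of other genes. The longest coding stretch shared with a neighbour is printed to show what a read from this cluster can look like. It runs for 148 bases at chr6:152486845-152486992 (+ strand) and is identical, base for base, at chr6:152522478-152522625 in LOC100525112.
CYP2J34 and LOC100525112: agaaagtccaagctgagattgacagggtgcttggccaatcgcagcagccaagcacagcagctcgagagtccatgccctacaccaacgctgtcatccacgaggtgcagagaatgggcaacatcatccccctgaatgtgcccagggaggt

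In the CYP4 family, whose enzymes hydroxylate the end of fatty acid chains, 1 member was higher, 0 were lower and 2 were not called. Among all genes 6.64% were higher and 6.95% lower. CYP4F8 had normalized counts of 468, 345, 455, 233 and 617 in PN 1, 2, 3, 4 and 6, against 114, 194 and 194 in bottle-fed 1, 2 and 3. The PN livers lay above the bottle-fed livers, with PN 4 the nearest to them and PN 5 the highest of all at 754. Means were 424 ± 144 in the PN group and 167 ± 46.2 in the bottle-fed group, with a log2 fold change of 1.34 (SE 0.34, adjusted p = 0.00330) in edgeR's quasi-likelihood test.

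CYP4F8 is also uncertain by name. Its model at chr2:61889495-61917929 (- strand) matches a RefSeq gene called cytochrome P450 4F6-like and lies wholly inside a second, unnamed deposited gene on the same strand. Of the 31-base words in the exons of that RefSeq gene, 61.0% occur in exons of other genes. CYP4F3, which in humans inactivates leukotriene B, had a log2 fold change of -0.08 (SE 0.31, adjusted p = 0.931), and CYP4V2, a hydroxylase of medium-chain fatty acids, had -0.43 (SE 0.25, adjusted p = 0.274). Both carboxylesterases were not called. CES3, at a mean of 8981 normalized counts, had -0.03 (SE 0.23, adjusted p = 0.972), and CES5A, at a mean of 4.20, had -4.30 (SE 1.76, adjusted p = 0.0859), a value that rests on few reads.

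**Figure D2:**
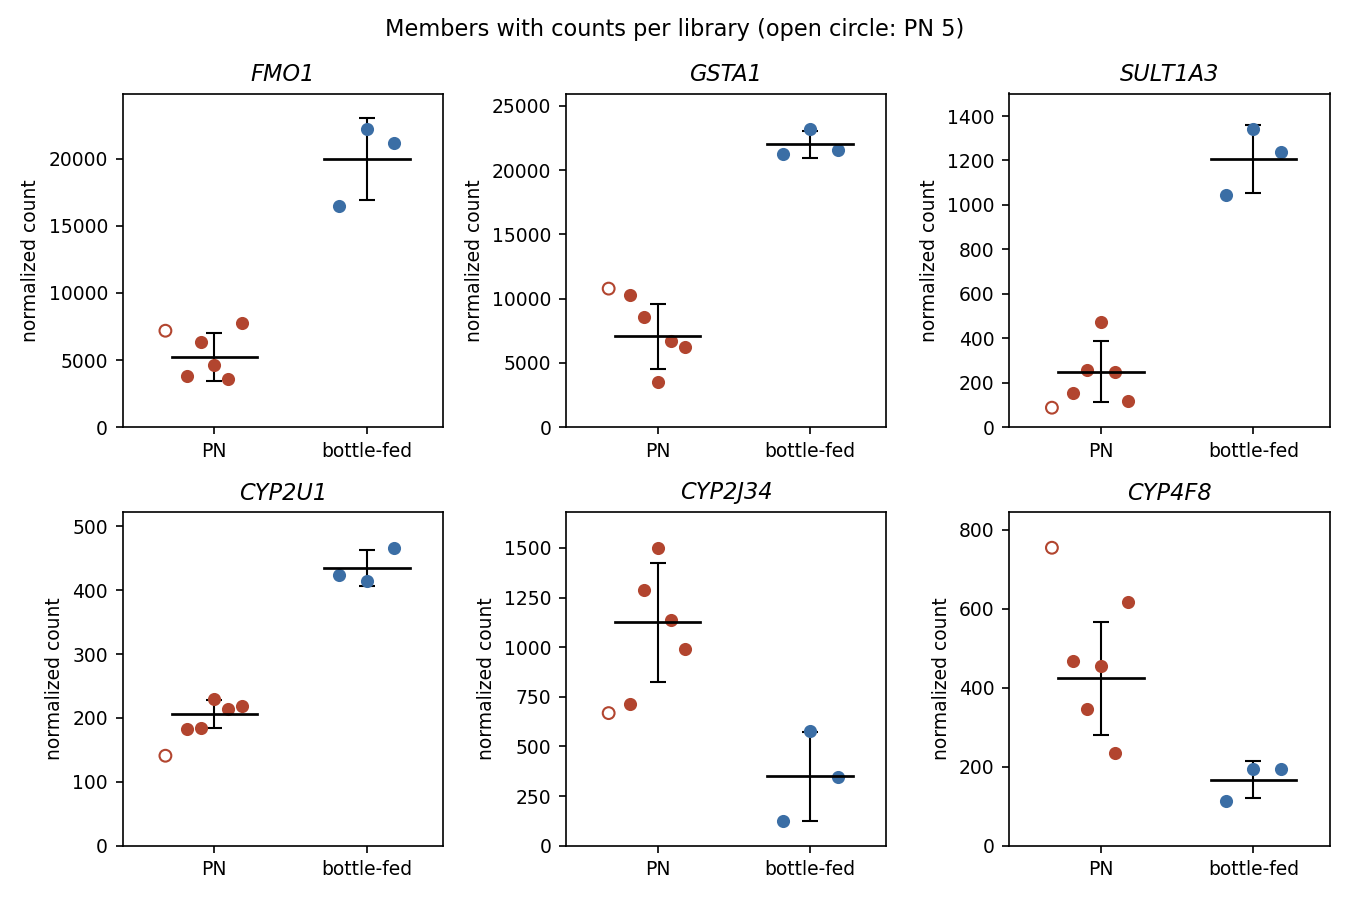
Normalized counts of the 6 members with counts per library, PN livers in red at the left of each panel and bottle-fed livers in blue at the right, each axis from 0. Horizontal lines are means and bars are SDs of the 5 PN and 3 bottle-fed livers, open circles are PN 5, and in no panel do the groups overlap.

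**Figure D3:**
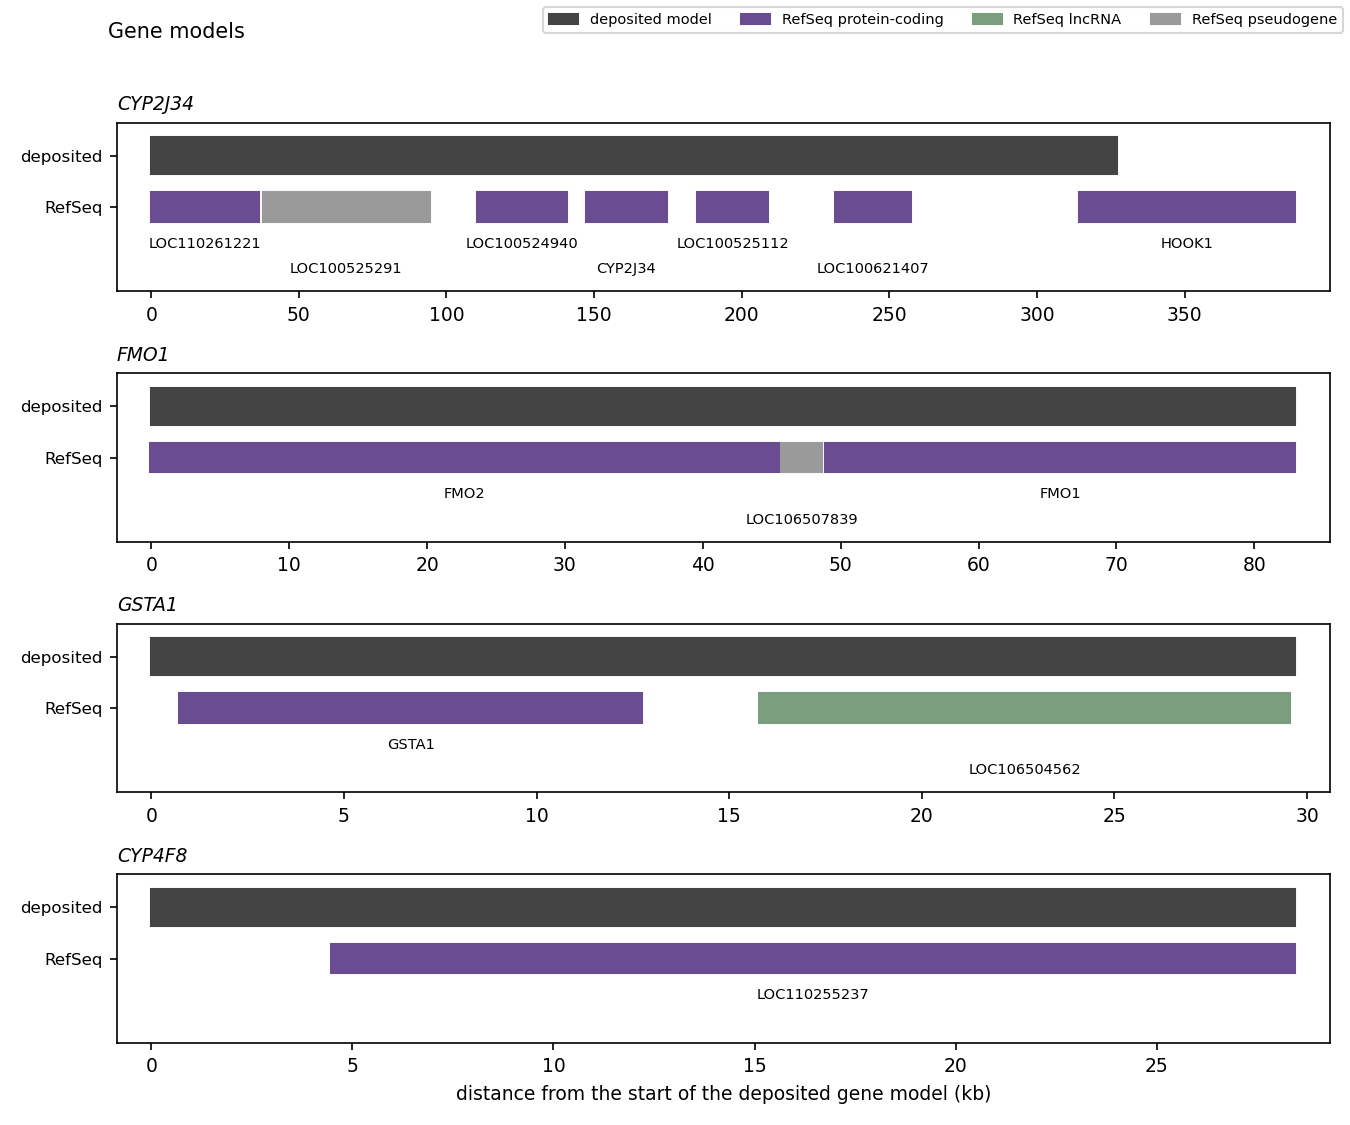
Deposited gene models (upper bars) of CYP2J34, FMO1, GSTA1 and CYP4F8 and the RefSeq genes they overlap (lower bars), by distance in kb from the lowest coordinate of the deposited model, whichever its strand. The CYP2J34 model overlaps 7 RefSeq genes, the FMO1 model begins inside FMO2, and the GSTA1 model holds GSTA1 and LOC106504562.

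Among the phase II families, GST had the most members, and its called members were all lower. Of its 9 genes 5 were lower (55.6%), 0 were higher and 4 were not called, beside 6.95% lower and 6.64% higher among all genes. All 9 fold changes lay below 0, between -1.60 and -0.31, with a median of -0.77. Without GSTCD, a protein with only part of the GST fold, the count was 5 of 8 and the median -0.82.

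GSTA1 joins glutathione to electrophiles and is among the most abundant transferases of liver. Normalized counts were 10283, 8576, 3541, 6676 and 6227 in PN 1, 2, 3, 4 and 6, against 21215, 23173 and 21595 in bottle-fed 1, 2 and 3. The bottle-fed livers lay within 1.09-fold of each other, the PN livers were 2.90-fold apart, and the groups did not overlap with PN 5 at 10778. Means were 7061 ± 2545 in the PN group and 21994 ± 1039 in the bottle-fed group, with a log2 fold change of -1.64 (SE 0.32, adjusted p = 9.12e-04) in edgeR's quasi-likelihood test.

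The GSTA1 model counted, at chr7:46538032-46567728 on the - strand, holds 2 RefSeq genes, GSTA1 and LOC106504562, which is annotated as a noncoding copy called glutathione S-transferase alpha M14. Their exon lengths are 1026 and 1182 bases, against 11544 for the deposited model, and 50.4% of the 31-base words of RefSeq GSTA1 recur in other exons. The longest identical coding stretch has 142 bases at chr7:46542199-46542340 and again at chr7:46557291-46557432, both on the - strand, and is printed as an example of sequence that the copies share. Both RefSeq genes lie wholly inside the counted model, so its count does not separate them.
GSTA1 and LOC106504562: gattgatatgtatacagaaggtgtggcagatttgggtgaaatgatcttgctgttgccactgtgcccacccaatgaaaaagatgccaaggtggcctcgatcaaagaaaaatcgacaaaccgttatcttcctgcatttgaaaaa

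The other called GST members had no counts per library. GSTZ1, which also serves tyrosine breakdown as maleylacetoacetate isomerase, had a log2 fold change of -1.14 (SE 0.18, adjusted p = 1.70e-08) in the authors' deposited table. GSTA4, which conjugates aldehydes of lipid peroxidation, had -0.87 (SE 0.20, adjusted p = 2.42e-04), and GSTK1, the kappa class enzyme of mitochondria and peroxisomes, had -0.77 (SE 0.17, adjusted p = 1.81e-04). GSTM3, a mu class enzyme, had -1.44 (SE 0.47, adjusted p = 0.0219) at a mean of 174. GSTO1, an omega class enzyme that reduces dehydroascorbate, was abundant at 8031 and had -0.31 (SE 0.15, adjusted p = 0.193), and 34.3% of its RefSeq exon words recur in another gene. The remaining GSTT4, GSTCD and GSTO2 had values from -0.65 to -0.57 and were not called.

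The called sulfotransferases divided in direction. Of 7 members, 3 were higher, 1 was lower and 3 were not called, with a median log2 fold change of 0.45. That is 42.9% higher and 14.3% lower, beside 6.64% and 6.95% of all genes. SULT2A1, which sulfates bile acids and steroids, had a mean of 10294 normalized counts and a log2 fold change of 0.65 (SE 0.16, adjusted p = 7.89e-04). SULT1C3 had 0.64 (SE 0.14, adjusted p = 2.64e-04), and SULT1E1, the estrogen sulfotransferase, had 0.63 (SE 0.19, adjusted p = 0.00960). The 3 called-higher members thus had fold changes of similar size. SULT1C2 had 0.45 (adjusted p = 0.412), SULT1B1 had 0.11 (adjusted p = 0.907) and SULT1C4, at a mean of 5.49, had -0.49 (adjusted p = 0.893).

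SULT1A3, named after the human enzyme that sulfates dopamine, had the lowest fold change in the authors' deposited table among the 28 members whose mean was 50 or more. Normalized counts were 152, 259, 471, 246 and 119 in PN 1, 2, 3, 4 and 6, against 1042, 1341 and 1239 in bottle-fed 1, 2 and 3. All PN livers lay below all bottle-fed livers, PN 5 being the lowest at 87.6, and PN 3 the highest of them. Means were 250 ± 138 in the PN group and 1207 ± 152 in the bottle-fed group, with a log2 fold change of -2.27 (SE 0.37, adjusted p = 3.42e-04) in edgeR's quasi-likelihood test. The model at chr3:18351621-18354651 (+ strand) has an exon length of 1203 bases, and 0% of the RefSeq exon words occur in another gene. In UGT, the single measured gene UGT8, which adds galactose to ceramide, had -0.19 (SE 0.30, adjusted p = 0.782) in the authors' deposited table.

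The 6 members with counts per library give 4 lower and 2 higher, and all 6 were called in the same direction by edgeR's quasi-likelihood test and by the authors' deposited table. In that table of 1054 genes, however, 41.6% did not overlap and were lower in the 5 PN livers, and 43.5% did not overlap and were higher, since the table was selected on these livers. Of the 994 genes that entered the test, 45.7% were called lower and 54.1% higher. The call of these members is therefore a description. A two-sided exact permutation test on log2 of the normalized count plus 1 gave p = 0.0179, the smallest that 56 splits allow, for every member except CYP4F8 (p = 0.0357), and 83.7% of the 1054 genes had a p under 0.05 in this test. With PN 5 included, 41.0% of the 1054 genes did not overlap and were lower, 41.7% did not overlap and were higher, and each of the 6 members had p = 0.0119 in the exact permutation test, the smallest that 84 splits allow.

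Livers of a group did not keep the same order across the 6 members. PN 3 had the lowest GSTA1 of the kept PN livers and the highest SULT1A3, CYP2U1 and CYP2J34. Among the same 5 livers PN 6 had the highest FMO1 and CYP4F8 and the lowest SULT1A3. PN 5 had the highest GSTA1 and CYP4F8 of all 6 PN livers, and the lowest SULT1A3, CYP2U1 and CYP2J34. Of the bottle-fed livers, bottle-fed 1 was the lowest for 5 of the 6 members, CYP2U1 being the exception. In FPKM the order of the members rests on the exon lengths of the deposited models, which for GSTA1 and CYP2J34 are far longer than those of RefSeq, and GSTA1 had more normalized counts than FMO1 in both groups, so no rank is drawn from these levels. FPKM of GSTA1 averaged 30.96 ± 11.2 in the PN group and 96.8 ± 4.41 in the bottle-fed group, and that of SULT1A3 averaged 10.5 ± 5.78 in the PN group and 51.0 ± 6.30 in the bottle-fed group. CYP4F8 averaged 3.04 ± 1.03 in the PN group and 1.20 ± 0.33 in the bottle-fed group, CYP2J34 averaged 1.95 ± 0.51 in the PN group and 0.61 ± 0.39 in the bottle-fed group, and CYP2U1 averaged 1.40 ± 0.14 in the PN group and 2.97 ± 0.19 in the bottle-fed group.

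The 150 bases before the RefSeq start of FMO1, GSTA1 and SULT1A3, the 3 lowest fold changes among the members with counts per library, are printed, with capitals marking any match to the motifs searched on both strands. These were GCGTG, the core of the dioxin response element, TATAAA, the TATA box, and AGGTCA, a nuclear receptor core site. Matches were found only in FMO1 (TATAAA) among these 3, and in the window of CYP2U1 (AGGTCA) among the other members with counts per library. Among 19546 windows of this length before RefSeq gene starts, 23.9% held GCGTG, 5.84% TATAAA and 7.44% AGGTCA. The windows are chr9:63860807-63860956 (+) for FMO1, chr7:46550782-46550931 (-) for GSTA1 and chr3:18351055-18351204 (+) for SULT1A3, on Sscrofa11.1, from RefSeq.
FMO1: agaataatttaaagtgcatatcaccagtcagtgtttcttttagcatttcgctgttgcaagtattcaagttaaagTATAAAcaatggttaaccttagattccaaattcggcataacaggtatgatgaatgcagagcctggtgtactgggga
GSTA1: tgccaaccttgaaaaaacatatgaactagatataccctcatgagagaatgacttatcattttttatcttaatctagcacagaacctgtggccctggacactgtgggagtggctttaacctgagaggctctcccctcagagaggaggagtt
SULT1A3: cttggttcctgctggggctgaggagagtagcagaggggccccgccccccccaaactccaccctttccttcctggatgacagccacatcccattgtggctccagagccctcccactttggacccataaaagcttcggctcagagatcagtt

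Genes that work with these families were counted from fixed lists in the authors' deposited table. Among all genes in it, 6.95% were lower and 6.64% higher with PN. Of 9 partner genes, among them the proteins that pass electrons to the P450 enzymes and the heme oxygenases, 4 were lower and 0 higher, with a median log2 fold change of -0.36. They were CYB5A and CYB5B, cytochromes b5, with -0.76 (adjusted p = 5.01e-06) and -0.74 (adjusted p = 5.65e-04), CYB5R3, a cytochrome b5 reductase, with -0.84 (adjusted p = 0.0208), and POR, the reductase that feeds every microsomal P450, with -0.46 (adjusted p = 0.0211). Of 27 other enzymes of oxidation, reduction and hydrolysis, 11 were lower and 0 higher, with a median of -0.40. The 3 smallest adjusted p belonged to MAOB, a monoamine oxidase, with -1.17 (adjusted p = 3.96e-13), ADH4, an alcohol dehydrogenase, with -3.42 (adjusted p = 3.02e-06), and ALDH1A1, a retinal dehydrogenase, with -0.75 (adjusted p = 2.89e-05).

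Of 12 other conjugating enzymes, 4 were lower (33.3%) and 1 was higher (8.33%), with a median of -0.41. The share of all genes was 6.95% lower and 6.64% higher. MGST1, a microsomal glutathione transferase, had -0.64 (adjusted p = 1.20e-04), and ACSM5, a medium-chain acyl-CoA synthetase, had 0.57 (adjusted p = 0.00747). Of 14 genes that supply the cosubstrates of conjugation, 3 were lower and 0 higher, with a median of -0.03. GSS and GCLC make glutathione and had -0.97 (adjusted p = 0.00139) and -0.66 (adjusted p = 0.0118), and MAT1A, which makes the methyl donor of liver, had -0.64 (adjusted p = 0.0277). The 2 enzymes that make the sulfate donor were not called, with -0.29 for PAPSS1 and -0.22 for PAPSS2.

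Of 29 genes on a fixed list of transcription factors and other regulators, 4 were lower (13.8%) and 1 was higher (3.45%), with a median of -0.18. All genes stood at 6.95% lower and 6.64% higher. The xenobiotic receptor NR1I3 (CAR) had -1.03 (adjusted p = 1.16e-06) and FOXA1 had -0.96 (adjusted p = 2.94e-05), whereas NFE2L2, the oxidative stress factor NRF2, had 0.56 (adjusted p = 0.00119). Of 12 drug transporters, 3 were lower (25%) and 1 was higher (8.33%), with a median of -0.22. SLCO2B1, an importer of organic anions, had -0.54 (adjusted p = 0.0151), and ABCC2, the exporter of conjugates into bile, had 0.62 (adjusted p = 0.0277).

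**Figure D4:**
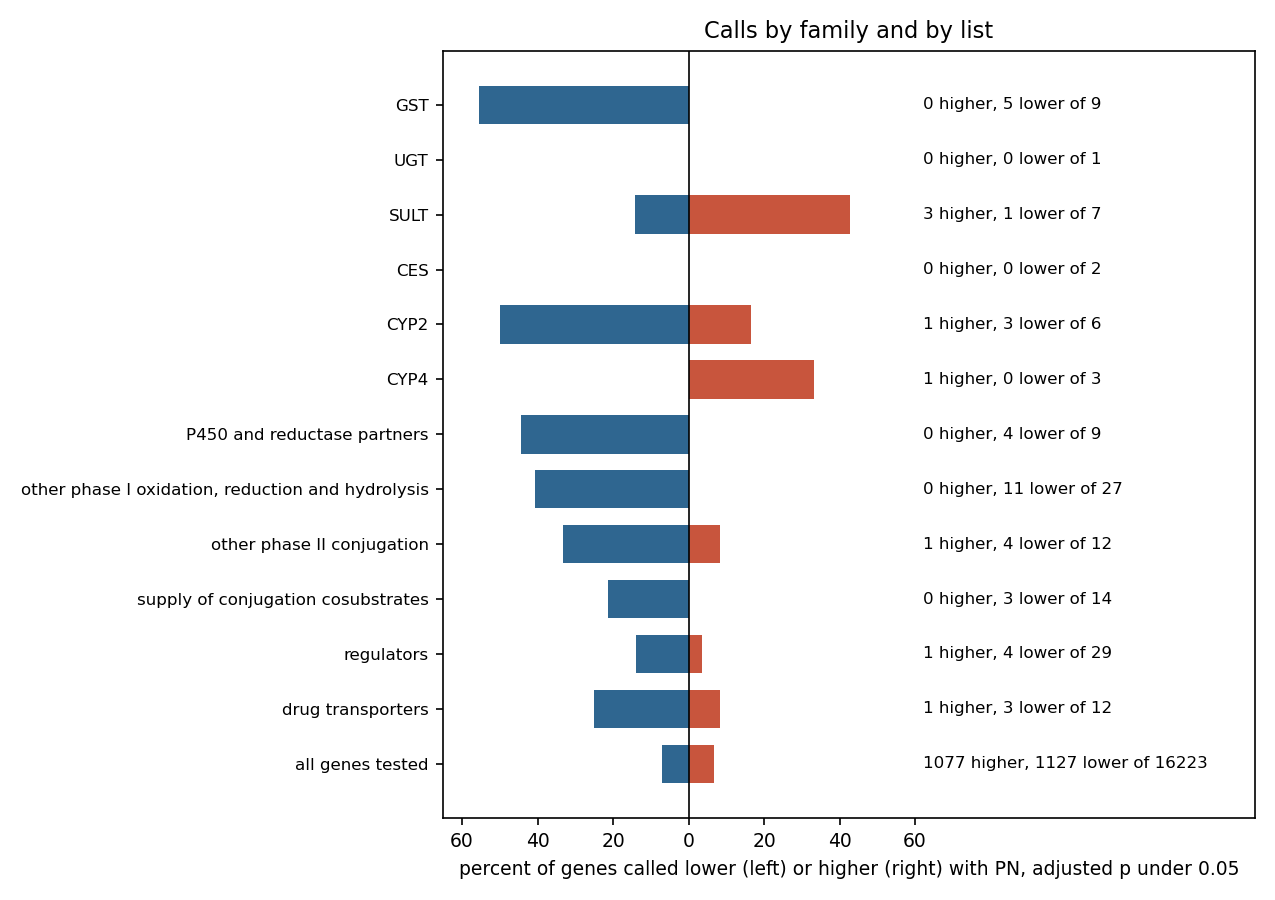
Percent of genes called higher (right, red) or lower (left, blue) with PN at an adjusted p under 0.05 in the authors' deposited table, for 6 of the families, each list of partner genes and all 16223 genes. The GST bar extends only to the lower side, the SULT bar extends further to the higher side, and all genes stand at 6.64% higher and 6.95% lower.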

How the data were processed

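Liver mRNA of 9 piglets was sequenced. According to the submitters' processing notes, the authors used HISAT2 2.0.5 against Sscrofa11.1, took counts per gene with featureCounts 2.0.3 and compared groups with DESeq2 1.26.0 (the methods of the paper name another version). The raw counts per gene and library were deposited for 1054 genes that the authors had selected. The normalized signal values in the same deposited table are those counts divided by a size factor per library, and the deposited FPKM scale them by exon length and library total. The mean signal, log2 fold changes, standard errors and adjusted p-values in the authors' deposited all-gene table are the authors' own and are used here for the values and calls of the members, partner lists and cell type markers, with no test added. The other fold change, p-value and group mean columns were not used.

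Symbols came from the annotation and the deposited names, and RefSeq genes were compared with the deposited positions on Sscrofa11.1. Raw counts of 994 genes passing edgeR's filter on low counts were fitted with edgeR's quasi-likelihood test, using the authors' size factors, 5 PN and 3 bottle-fed libraries, no covariates and the Benjamini-Hochberg adjustment over these genes. This test gives no standard error. The SE printed with an edgeR fold change is the absolute log2 fold change divided by the square root of the F statistic. No 2 libraries agreed within sampling noise. Each group came from its own sow, so p-values measure the spread among piglets within a litter and hold no spread between litters. Named were all members with counts per library, up to 4 members per family with the smallest adjusted p and the most abundant member, and up to 3 genes per partner list. Members outside this rule (GSTM3, GSTO1 and the remaining members, and POR, PAPSS1 and PAPSS2) were named after their values were seen, and a few genes within the rule are not reported here. The members and lists were chosen with earlier results of these data known. Alternatives tried were other scaling (TMM, library totals), DESeq2 1.42.0, the exact permutation test, no filter, all 9 libraries, each library left out, the replicate number as a block, an adjusted p under 0.01, a log2 fold change beyond 1, a mean of at least 50, every symbol with the prefix, and pseudocounts of 0.5 and 5. The tests were tried on simulated data. Software was edgeR 4.0.16 in R 4.3.3, and matplotlib 3.10.9, scipy 1.17.1, pandas 2.3.3 and numpy 2.4.6 in Python 3.11.15.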

Additional observations from a re-analysis of the deposited data

How the results depend on the processing

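With a log2 fold change beyond 1 as a further threshold, 2 of the 5 higher members and 6 of the 11 lower members remained. Without the members that have at least 20% of their RefSeq exon words in another gene, an alternative chosen after seeing the data, 3 members were higher. Exon words were compared for only 23 of the 32 members. The rest, with SULT1C3 and CYP2D6 among them, were kept without this check. The CES median of -2.16 became -0.03 at a mean of at least 50. The 6 members with counts per library gave 2 higher and 4 lower under every alternative, including each library left out (2 to 2 higher, 4 to 4 lower). All 84 fold changes (6 members under 14 alternatives) kept their direction and call, with adjusted p up to 0.0180 (CYP4F8), which shows no stability of their own, since 54.1% of the genes in that selected table were called higher and 45.7% lower. The replicate numbers did not pair the piglets (correlations of deviations -0.03, -0.05 and -0.02), and the replicate block also gave 2 higher and 4 lower. No further change passed 1.5-fold. Members without counts per library have no check by library here, and the 4 with means under 50 have standard errors of 0.64 to 1.76 on the log2 scale.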

Other observations

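Of the symbols that share the prefixes but belong to other gene families, CYP26A1, a retinoic acid hydroxylase, was listed at 0 counts in each of the 5 PN livers, against 1124 to 1253 normalized counts in the bottle-fed livers, and was the only one of the 6 that was called. CYP26B1, a second retinoic acid hydroxylase, had normalized counts of 3.90 to 16.7 in the 5 PN livers and of 27.7 to 53.1 in the bottle-fed group. Although these ranges did not overlap, CYP26B1 was not called in the authors' deposited all-gene table. Its log2 fold change there was -1.61 (SE 0.71, adjusted p = 0.120). CYP27A1, a hydroxylase of bile acid synthesis, had a log2 fold change of 0.13 (SE 0.16, adjusted p = 0.690) in the authors' deposited table.

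Markers of other cell types were counted in the authors' deposited table, where 6.95% of all genes were lower and 6.64% higher. Of 7 macrophage markers 1 was higher (CD68) and 4 had fold changes below 0. Of 6 endothelial markers 1 was higher (VWF) and 5 lay below 0. Of 8 stellate and fibroblast markers 1 was lower (DCN), with 6 below 0. Of 5 neutrophil markers 1 was higher (CSF3R), with 4 above 0. Of 4 erythroid markers 2 were lower (AHSP and SLC4A1), and all 4 lay below 0. A single call among so few markers is not read as a change of a cell type. None of 7 T and NK cell markers and none of 2 B cell markers was called.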
